A study of Mus musculus with 2 samples.

Results

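The genes described here are the protein tyrosine phosphatases and dual-specificity phosphatases of the deposited expression table, taken as every gene whose symbol starts with *Ptpn* or *Dusp* and a digit or with *Ptpr* and a letter. Of the 21041 genes of the table, 64 met this rule. They comprised 21 receptor-type phosphatases, 17 non-receptor phosphatases, 10 MAP kinase phosphatases, 14 other dual-specificity phosphatases and 2 genes that encode no phosphatase. These last were *Ptprcap*, whose product is a membrane protein bound to CD45, and *Ptprtos*, a transcript named as the opposite strand of *Ptprt*. Expression was measured by mRNA sequencing in double-positive (DP) thymocytes, the CD4 and CD8 bearing cells that undergo selection on their T-cell receptor (TCR). There was 1 library from WT mice, which in the study carry the floxed *Cxxc1* fl/fl alleles without Cre, and 1 from *Cxxc1*-deficient mice, called the deficient library below. The genotype of the deficient mice is *Cxxc1* fl/fl h*CD2*-Cre in the study, with Cre expressed from the human *CD2* promoter in early thymocytes and in other immune cells, whereas the genotype label of the sample reads Cxxc1+/-. It was grouped by its title. The floxed allele was made in embryonic stem cells of strain 129 and backcrossed onto C57BL/6, and mice were as a rule 3 to 4 weeks old. Thymocyte populations were sorted by flow cytometry in the study, whereas the gate, number and sex of the mice for these libraries are not given in the sources used here.

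Tyrosine phosphatases remove phosphate groups from tyrosine, and in T cells they set how far a TCR signal travels. CD45, the product of *Ptprc*, keeps the kinase LCK ready to act by removing an inhibitory phosphate, whereas the products of *Ptpn22* and *Ptpn6* dampen TCR signals. Dual-specificity phosphatases remove phosphate from tyrosine and from serine or threonine, and the MAP kinase phosphatases among them switch off ERK, JNK and p38. Cxxc1 binds unmethylated CpG dinucleotides and belongs to the Setd1 complex, which trimethylates histone H3 at lysine 4.

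The deposited values are whole numbers, and the steps between low values show that they were divided by transcript length, so levels can be compared between genes. With 1 library per genotype there was no replicate check and no test. Ratios are of the deficient value to the WT value, and a call means a difference of at least 2-fold. Over the 20125 genes above 0 in at least 1 library the median log2 ratio was -0.20, and a lower value in the deficient library was found for 60.0% of them. The deposited values summed to 1551994 in WT and 981677 in the deficient library, and they were not rescaled unless a scaling is named. Approximate numbers of reads were estimated from the steps between low values, at 4.06 in WT and 4.70 in the deficient library for 1 read on a transcript of 1000 bases. Read as RPKM these steps would mean 246597 reads in WT and 212567 in the deficient library, fewer than the 1373275 and 709627 obtained by adding the reads of all genes, so the values are not plain RPKM and the reads are approximate. The 95% intervals given with ratios (Clopper-Pearson) rest on these reads, hold counting error alone, and they set 1 library against the other, not 1 genotype against the other. Olfactory receptor genes, which thymocytes do not use, served as background, and the 95th percentile of these 1122 genes was 53.95 in WT and 57 in the deficient library. *Cxxc1* itself had 91 in WT and 50 in the deficient library, so the latter value lay within this background. All 9 DP markers tested were lower in the deficient library, with WT values from 79 to 20778 and deficient values from 44 to 5058. *Cd4* had 2728 and 1257 and *Cd8a* had 3503 and 507. Of 26 markers of B cells, myeloid cells, endothelium, epithelium and stroma, and erythroid cells, 3 exceeded the background percentile in WT and 2 in the deficient library. Over all genes the shares were 29.9% and 19.1%. The summed values of these 5 lists ran from 75 to 235 in WT and from 65 to 226 in the deficient library. The markers above the percentile were *Itgam* (101 in WT and 107 in the deficient library), *Pecam1* (119 and 66) and, in WT alone, *Cd79b* (74 and 43). *Hba-a1* was listed at 0 in both libraries and *Krt8* in the deficient library. The part of these markers in the results was not tested. Of 15 Y-linked genes, 0 had a value above 0 in WT and 7 had one in the deficient library, so sex and genotype cannot be told apart in these data.

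The promoters of 4 genes are shown because these genes carry the largest differences among the phosphatases above the background. *Ptprc*, *Dusp6* and *Dusp2* had the lowest ratios and *Dusp1* the highest. Each sequence runs from 250 bases before to 50 bases after the annotated start on the strand of the gene (RefSeq, GRCm38.p6), and capitals mark CpG dinucleotides, the sequence that Cxxc1 binds when unmethylated. In the study the density of Cxxc1 binding in DP thymocytes was raised at transcription start sites and at CpG island centres. Only a small part of the binding sites, however, lay in promoters or on CpG islands. The number of CpG in a window is therefore not a measure of Cxxc1 binding there. The promoter of *Ptprc* lies at chr1:138175256-138175555 (minus strand), that of *Dusp1* at chr17:26508423-26508722 (minus strand), that of *Dusp2* at chr2:127335909-127336208 (plus strand) and that of *Dusp6* at chr10:99262981-99263280 (plus strand).
Ptprc: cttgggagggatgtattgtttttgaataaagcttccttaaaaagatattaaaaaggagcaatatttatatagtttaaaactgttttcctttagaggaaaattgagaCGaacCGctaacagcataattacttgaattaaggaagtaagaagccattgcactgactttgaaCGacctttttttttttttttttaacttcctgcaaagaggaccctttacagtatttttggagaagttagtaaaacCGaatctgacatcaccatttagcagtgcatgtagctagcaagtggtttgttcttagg
Dusp2: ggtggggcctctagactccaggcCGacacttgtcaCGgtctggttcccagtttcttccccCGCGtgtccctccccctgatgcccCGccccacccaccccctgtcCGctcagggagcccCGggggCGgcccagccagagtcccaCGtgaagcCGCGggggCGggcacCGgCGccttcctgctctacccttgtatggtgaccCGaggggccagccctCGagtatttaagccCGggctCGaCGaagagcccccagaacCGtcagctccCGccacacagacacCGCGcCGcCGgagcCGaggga
Dusp6: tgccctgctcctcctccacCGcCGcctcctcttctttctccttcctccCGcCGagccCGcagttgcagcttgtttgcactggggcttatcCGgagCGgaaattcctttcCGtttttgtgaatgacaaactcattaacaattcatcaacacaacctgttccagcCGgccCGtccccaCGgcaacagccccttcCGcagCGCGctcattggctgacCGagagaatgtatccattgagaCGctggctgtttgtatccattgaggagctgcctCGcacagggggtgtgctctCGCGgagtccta
Dusp1: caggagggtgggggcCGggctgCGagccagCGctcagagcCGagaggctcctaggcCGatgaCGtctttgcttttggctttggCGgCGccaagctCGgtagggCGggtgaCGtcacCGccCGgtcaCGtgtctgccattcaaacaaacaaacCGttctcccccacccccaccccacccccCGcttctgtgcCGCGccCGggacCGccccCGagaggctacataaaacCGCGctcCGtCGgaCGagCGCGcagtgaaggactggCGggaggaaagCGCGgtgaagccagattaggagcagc

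The *Ptprc* window holds 4 CpG dinucleotides, and a second annotated start of the gene has 2. The windows of the MAP kinase phosphatase genes are CpG-rich, with 26 in *Dusp2*, 19 in *Dusp6* and 31 in *Dusp1*. A promoter was listed for 51 of the 64 genes, with a median of 25 CpG at the richest start of each gene, compared with 16 over 15110 genes of the table. The median was 24 for the 19 of these genes above the olfactory receptor background described above and 26.5 for the other 32. The windows were also searched, on both strands, for TGACGTCA, a palindrome bound by CREB and related factors that contains a CpG. It was present in 5 of the 51 genes (9.80%) and in 2.71% of the 15110 genes. These 5 were *Dusp1*, *Dusp8*, *Ptpn11*, *Ptprs* and *Ptpru*, of which *Dusp1* alone was called. The called genes *Ptprcap* and *Ptpn2* had no listed promoter and were not searched. The shares with the palindrome were not matched for the number of CpG in the windows, so no enrichment is read from them.

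Across the families, expression in DP thymocytes was concentrated in 1 gene. *Ptprc* had a value of 4239 in WT, rank 6 of the whole table, and 1101 in the deficient library, rank 9. It was 12.2 times the next phosphatase gene, *Ptpn7*, in WT. In the deficient library the next phosphatase gene was *Dusp1*, and *Ptprc* was 3.63 times as high. *Ptprc* made up 47.2% of the summed values of the 64 genes in WT and 23.1% in the deficient library. The background percentile was exceeded by 23 of the 64 genes in WT and 17 in the deficient library, that is by 35.9% and 26.6% of them, compared with 29.9% and 19.1% of all genes. Of these genes, 16 exceeded it in both libraries, 7 in WT alone and 1, *Dusp15*, in the deficient library alone. The other 40 genes exceeded it in neither library. Passing in 1 library alone is tied to the direction of the difference, and no count over the genes that passed is used as support.

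**Figure D1:**
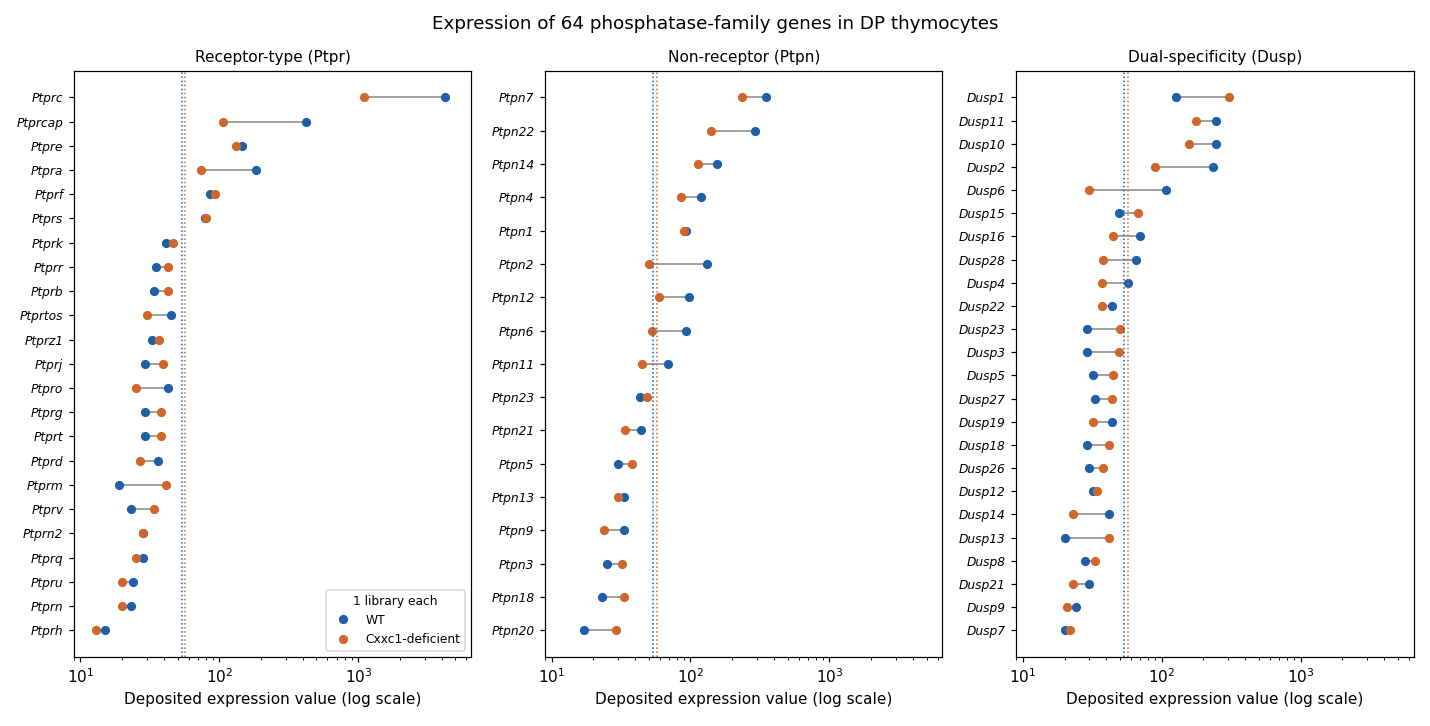
Deposited expression value (horizontal axis, log scale) of all 64 genes in the WT library (blue) and the deficient library (orange), 1 library each, with Ptprcap and Ptprtos in the left panel. Dotted lines mark the 95th percentile of olfactory receptor genes, 53.95 in WT and 57 in the deficient library, and 40 genes lie left of both. Ptprc stands far above the other genes, and Dusp1 (127 and 303) is higher in the deficient library.

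Of the 64 genes, 35 had a lower value in the deficient library, 28 had a higher value and 1 was equal. The share of lower genes was 54.7%, near the 60.0% of all genes. A value at least 2-fold lower was found for 7 genes, and over all genes the share was 17.4%. A value at least 2-fold higher was found for 3 genes, and over all genes it was 5.89%. The 64 genes had a median log2 ratio of -0.15, close to that of all genes. The split depended on the scaling of the libraries. With the libraries set to the same 75th percentile, which moved the median of all genes by 0.39 on the log2 scale, 24 of the 64 genes (37.5%) were lower and 40 higher, while 40.2% of all genes were lower. With the same sum without the 100 highest genes, a shift of 0.56, 17 (26.6%) were lower and 47 higher, against 32.5% of all genes lower. With the same median over genes whose mean reached 100, a shift of 0.997, 7 (10.9%) were lower and 57 higher, against 17.4% of all genes lower. All further ratios are of deposited values unless a scaling is named.

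The direction followed the expression level, as it did in the table as a whole. Of the 12 genes whose mean over both libraries reached 100, 11 were lower, 5 of them at least 2-fold. Of all genes of this level, 95.2% were lower and 56.8% at least 2-fold lower. The remaining gene, *Dusp1*, was at least 2-fold higher, as were 0.485% of all genes of this level. Among the 11 genes with a mean from 50 to under 100, 8 were lower and 2 at least 2-fold lower, against 82.6% and 20.0% of all genes in that range. None of these 11 was at least 2-fold higher (0.656% of all genes in the range). Below a mean of 50 lay 41 genes, and 16 of them were lower, compared with 47.8% of all such genes. None of the 41 was at least 2-fold lower, compared with 9.75% of all such genes. *Ptprm* and *Dusp13* were at least 2-fold higher, 2 of the 41, compared with 8.22% of all such genes. The median log2 ratio was -0.60 for the first range, where all genes had -1.08. It was -0.64 for the second, where all genes had -0.53, and 0.17 for the third, where all genes had 0. In bulk RNA, a smaller number of cells of a type and less RNA per cell cannot be told apart.

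**Figure D2:**
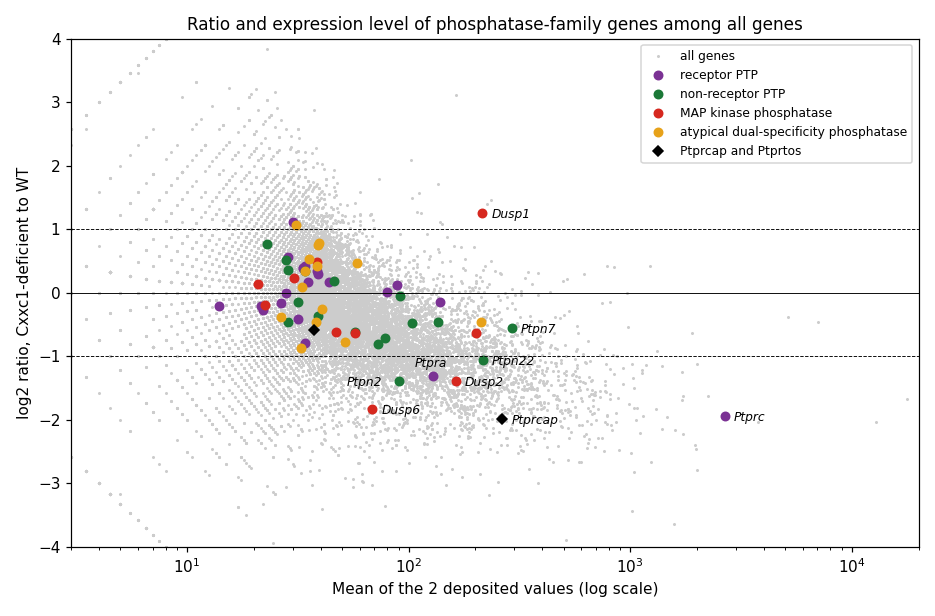
The log2 ratio of the Cxxc1-deficient to the WT value (vertical axis) is plotted against the mean of the 2 deposited values (horizontal axis, log scale) for all genes (grey) and for the 64 genes by class (coloured points and black diamonds). Dashed lines mark 2-fold, and genes beyond the axis limits are not drawn. The 12 family genes whose mean reached 100 lie below 0 with the bulk of the table, except Dusp1 at 1.25.

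Of the 21 receptor-type phosphatases, 9 were lower in the deficient library, 11 were higher and *Ptprn2* was equal, with a median log2 ratio of 0.02. Over all genes 60.0% were lower, with a median of -0.20. The receptor-type median was -0.15 for the 5 genes above the background in at least 1 library and 0.17 for the other 16. In each phosphatase class the median was negative for genes above the background and positive for the others. Class counts and medians therefore depend on how many members passed the background, and they are not read as the behaviour of a class. *Ptprc* and *Ptpra* were at least 2-fold lower, and *Ptprm* was at least 2-fold higher. *Ptprc* (ENSMUSG00000026395.8) spans positions 139959438 to 140071882 of chromosome 1 (mm9, minus strand). Its values of 4239 and 1101 correspond to a ratio of 0.260, with an interval from 0.245 to 0.276 from approximately 6078 and 1361 reads. This was the narrowest interval of the 18 genes described in detail. Of the 2472 genes of this level, 186 had a ratio at least as low. The gene-level value does not separate the CD45 isoforms. *Ptprc* is in the study's list of Cxxc1 targets. That list was selected by Cxxc1 binding at the extended gene body and by a change of at least 2-fold in these libraries. The difference of *Ptprc* is therefore not independent evidence of that list's direction.

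*Ptprcap*, whose product associates with CD45 in lymphocytes, had 422 in WT and 106 in the deficient library. The ratio was 0.251 (interval from 0.150 to 0.410, from approximately 96 and 21 reads). The value of *Ptprc* was 10.045 times that of *Ptprcap* in WT and 10.387 times in the deficient library, so this pair kept nearly the same proportion. *Ptprcap* spans positions 4154606 to 4156751 of chromosome 19 (plus strand), where its exons overlap those of *Rps6kb2* on the opposite strand. Whether counting used the strand is not given in the sources used here.

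*Ptpra* encodes a widely expressed phosphatase that activates Src-family kinases, and spans positions 130276014 to 130380036 of chromosome 2. Its value was 184 in WT and 74 in the deficient library, a ratio of 0.402 (interval from 0.290 to 0.548), and 838 of the 2472 genes of its level had a ratio at least as low. *Ptpre*, the closest relative of *Ptpra*, had 145 and 131, a ratio of 0.903 (interval from 0.729 to 1.13), and 158 genes of this level had a ratio at least as high. The intervals of these 2 related genes do not overlap, and that of *Ptpre* includes 1. Exons of each overlap those of another annotated gene on the opposite strand.

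*Ptprf* and *Ptprs*, which encode receptors of the LAR family known from neurons and epithelia, were near equal in the libraries. *Ptprf* had 85 in WT and 93 in the deficient library, a ratio of 1.09 (interval from 0.871 to 1.38). *Ptprs* had 79 and 80, a ratio of 1.01 (interval from 0.784 to 1.31). Of the 3657 genes with a mean from 50 to under 100, 435 had a ratio at least as high as *Ptprf* and 585 at least as high as *Ptprs*. The other 16 receptor-type genes did not exceed the background percentile, with values from 15 to 43 in WT and from 13 to 46 in the deficient library. These include *Ptprk* (41 and 46), which is required for CD4 T-cell development in the rat, and *Ptprj* (29 and 39), which encodes CD148. Among them *Ptprm*, which encodes a homophilic adhesion receptor, had 19 and 41, a ratio of 2.16 (interval from 1.33 to 3.66). *Ptpro* had 43 and 25, a ratio of 0.581 (interval from 0.375 to 0.882). Both values of each of these genes lie in the range of olfactory receptor genes.

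Of the 17 non-receptor phosphatase genes, 12 were lower in the deficient library and 5 were higher, with a median log2 ratio of -0.45. This median was -0.62 for the 9 genes above the background in at least 1 library and 0.26 for the other 8. *Ptpn22* and *Ptpn2* were at least 2-fold lower. *Ptpn7*, which encodes the haematopoietic phosphatase HePTP that acts on ERK and p38, was the highest of them. It spans positions 137029302 to 137041897 of chromosome 1, and it had 348 in WT and 236 in the deficient library. The ratio was 0.678 (interval from 0.557 to 0.827), and of the 2472 genes of its level 439 had a ratio at least as high. *Ptpn22*, whose product pairs with the kinase CSK and acts on LCK and ZAP70, spans positions 103663718 to 103716170 of chromosome 3. Its values were 292 and 140, a ratio of 0.479 (interval from 0.369 to 0.628), and 1292 of the 2472 genes were as low or lower, so its difference was typical of its level. The intervals of *Ptpn7* and *Ptpn22* overlap.

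*Ptpn2*, which encodes TC-PTP, a phosphatase of JAK and STAT proteins and of LCK, had 131 in WT and 50 in the deficient library. The ratio was 0.382 (interval from 0.237 to 0.585), and the deficient value lay within the background. Of the 3657 genes with a mean from 50 to under 100, 252 had a ratio at least as low. Its closest relative *Ptpn1*, which encodes PTP1B, a phosphatase of the insulin receptor, had 93 and 90. The ratio of *Ptpn1* was 0.968 (interval from 0.712 to 1.31), and the intervals of this pair do not overlap.

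*Ptpn14* (156 and 114) and *Ptpn4* (120 and 86), which encode phosphatases with a FERM domain, had ratios of 0.731 (interval from 0.623 to 0.855) and 0.717 (interval from 0.523 to 0.991). Exons of *Ptpn14* and of *Ptpn6* overlap those of a gene on the opposite strand. The SH2-domain phosphatases SHP-1 and SHP-2, encoded by *Ptpn6* and *Ptpn11*, exceeded the background in WT alone. *Ptpn6* had 93 in WT and 53 in the deficient library, a ratio of 0.570 (interval from 0.342 to 0.926). *Ptpn11* had 69 and 45, a ratio of 0.652 (interval from 0.463 to 0.931). *Ptpn12*, which encodes the PEST-type phosphatase of the cytoskeleton, had 97 and 59, a ratio of 0.608 (interval from 0.407 to 0.901). These 3 genes were lower in the deficient library by less than 2-fold. The other 8 non-receptor genes ran from 17 to 44 in WT and from 24 to 49 in the deficient library, and 0 of them were called.

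Of the 10 MAP kinase phosphatases, 6 were lower and 4 higher, with a median log2 ratio of -0.41. This median was -0.64 for the 6 genes above the background in at least 1 library and 0.19 for the other 4. *Dusp2* and *Dusp6* were at least 2-fold lower and *Dusp1* at least 2-fold higher. *Dusp1*, which encodes a nuclear phosphatase of p38, JNK and ERK and is an immediate early gene, had 127 in WT and 303 in the deficient library. It was the gene of highest ratio among the 24 above the background in at least 1 library, at 2.39 (interval from 1.76 to 3.30, from approximately 62 and 128 reads). Among the 2472 genes of its level, 12 were at least 2-fold higher and 10, *Dusp1* included, had a ratio at least as high as *Dusp1*. Its rank in the whole table was 2456 in WT and 136 in the deficient library. The gene spans positions 26642535 to 26645464 of chromosome 17 (mm9, minus strand).

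*Dusp2*, which encodes an inducible nuclear ERK phosphatase of lymphocytes, had 236 in WT and 90 in the deficient library. The ratio was 0.381 (interval from 0.246 to 0.580), with 725 of the 2472 genes of its level at least as low, and the gene spans positions 127161895 to 127164112 of chromosome 2. *Dusp6*, which encodes the cytoplasmic phosphatase specific for ERK, had 107 and 30, a ratio of 0.280 (interval from 0.159 to 0.477), and spans positions 98725865 to 98730122 of chromosome 10. Its deficient value lay within the background, and 99 of the 3657 genes of its level had a ratio at least as low. The value of *Dusp1* was 0.538 times that of *Dusp2* in WT and 3.37 times in the deficient library, so the order of these inducible genes was inverted.

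*Dusp10*, which encodes a phosphatase of JNK and p38, had 245 in WT and 158 in the deficient library. The ratio was 0.645 (interval from 0.496 to 0.835), and the gene spans positions 185837181 to 185899515 of chromosome 1. *Dusp16*, which encodes a JNK phosphatase, had 70 and 45 and *Dusp4* had 57 and 37, with ratios of 0.643 (interval from 0.446 to 0.926) and 0.649 (interval from 0.370 to 1.13). Both were above the background in WT alone, *Dusp4* by little. The remaining 4, *Dusp5*, *Dusp7*, *Dusp8* and *Dusp9*, ran from 20 to 32 in WT and from 21 to 45 in the deficient library, within the background in both.

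Of the 14 other dual-specificity phosphatases, 6 were lower and 8 higher, with a median log2 ratio of 0.21. This median was -0.47 for the 3 genes above the background in at least 1 library and 0.34 for the other 11. *Dusp11* was the only one of the 14 whose mean reached 100. *Dusp11*, which encodes a phosphatase of RNA 5′ ends, had 246 in WT and 178 in the deficient library. The ratio was 0.724 (interval from 0.613 to 0.851). *Dusp15* had 49 and 68, a ratio of 1.39 (interval from 0.895 to 2.20), and *Dusp28* had 65 and 38, a ratio of 0.585 (interval from 0.264 to 1.21), so both intervals include 1. The other 11 genes ran from 20 to 44 in WT and from 23 to 50 in the deficient library. Among these, *Dusp3* had 29 and 49 (ratio 1.69, interval from 1.04 to 2.71), and *Dusp13* had 20 and 42 (ratio 2.10, interval from 0.858 to 5.30). Both values of each lay within the background. *Dusp22* and *Dusp14*, whose products dampen TCR signalling, had 44 and 37, and 42 and 23. *Ptprtos* had 45 and 30. No interval was given for *Ptprtos*, which had no annotated length.

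**Figure D3:**
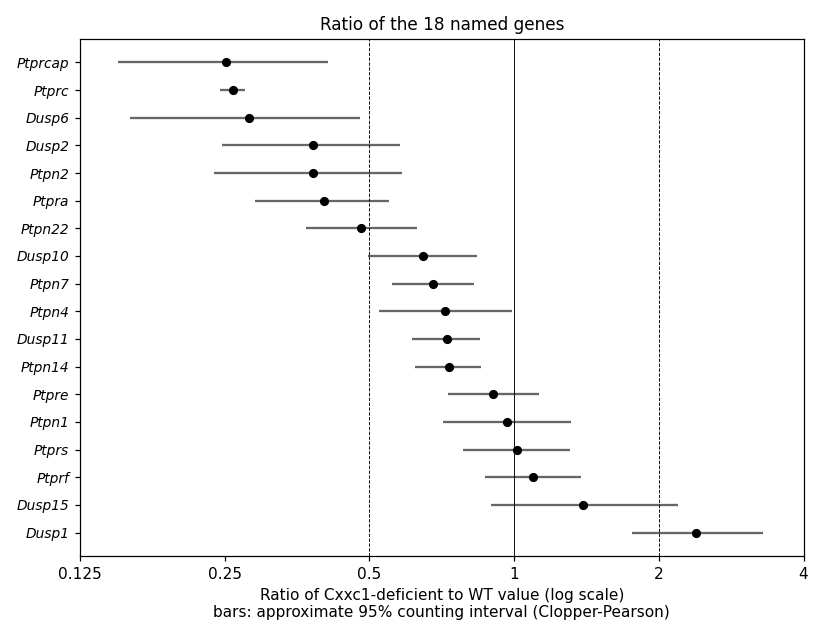
Ratio of the Cxxc1-deficient to the WT value (horizontal axis, log scale) for the 18 genes described in detail, with 1 library per genotype. Points are ratios, bars are approximate 95% Clopper-Pearson intervals for counting error, and dashed lines mark 2-fold. The bar of Ptprc is the narrowest (0.245 to 0.276), and only Dusp1 has its whole bar above 1.

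Each scaling multiplied the deficient library by 1 factor of up to 1.995, so a gene could cross 1 only if its deposited reduction was smaller than that factor, and a ratio above 1 could not cross. The direction of 8 of these 18 genes therefore depended on the scaling or on the subtraction of background. The 7 genes at least 2-fold lower as deposited had a reduction larger than every factor. The ratio of *Ptprc* ran from 0.255 to 0.518, that of *Ptpn22* from 0.430 to 0.957 and that of *Dusp1* from 2.28 to 4.76. *Dusp6* moved furthest, from 0.280 as deposited to 0.0706 after subtraction of the olfactory receptor median, which left little of its deficient value. *Ptpn7*, *Dusp11*, *Dusp10*, *Ptpre*, *Ptpn14*, *Ptpn4*, *Ptpn1* and *Ptprs* were on both sides of 1, *Ptprs* through the subtraction.

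**Figure D4:**
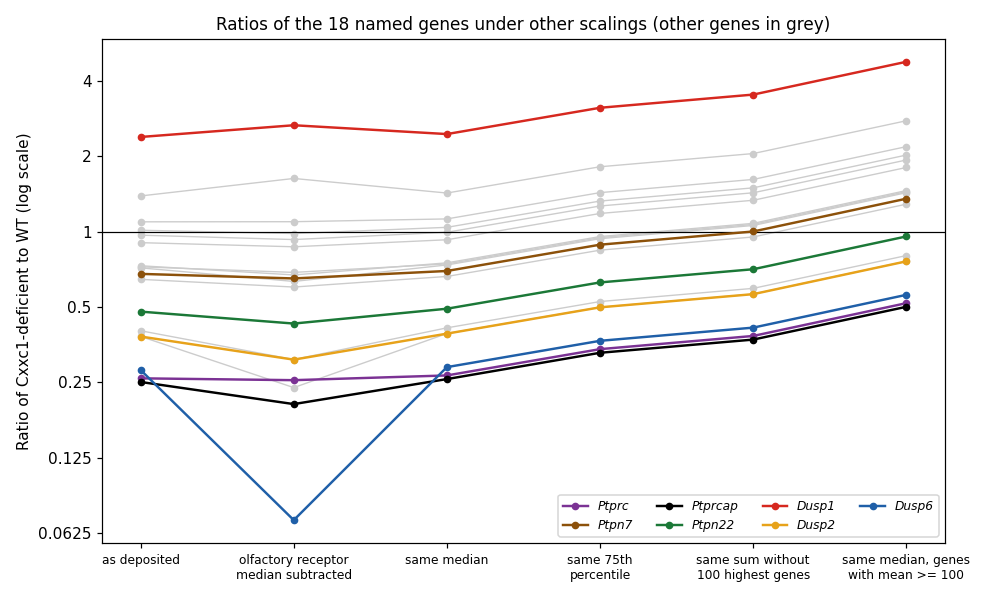
Ratio of the Cxxc1-deficient to the WT value (vertical axis, log scale) of the 18 genes described in detail, as deposited, after subtraction of the olfactory receptor median and under 4 scalings of the Cxxc1-deficient library (horizontal axis). Coloured or black lines mark 7 genes and grey lines the others. Each scaling moves all lines by the same factor, and Ptpn7 is among the lines that cross 1.

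Genes of the pathways in which these phosphatases act were set beside them, and their counts are read against the shares of all genes of the same level. All 18 genes of proximal TCR signalling were lower in the deficient library, 13 of them at least 2-fold, with a median log2 ratio of -1.31. Of these, 14 had a mean that reached 100, and 12 of the 14 were at least 2-fold lower, with a median of -1.65. At that level 95.2% of all genes were lower and 56.8% at least 2-fold lower, with a median of -1.08. The other 4 had a mean from 50 to under 100. All 4 were lower and 1 at least 2-fold lower, where all genes had 82.6% and 20.0%. The 18 genes include the CD45 substrate *Lck* (1073 in WT and 255 in the deficient library), *Csk* (102 and 41), the partner of the *Ptpn22* product, and *Pag1* (790 and 185), which encodes the membrane anchor of CSK. *Lck*, *Zap70* and *Lcp2* are, like *Ptprc*, in the study's target list, which was selected in part on these libraries. They are among the 12 genes called above, so their calls are not independent of that selection. Of the 16 MAP kinases and MAP kinase kinases, 14 were lower, 4 of them at least 2-fold, with a median log2 ratio of -0.66. All 5 that reached a mean of 100 and all 3 with a mean from 50 to under 100 were lower, where all genes had 95.2% and 82.6%. Of the other 8, 6 were lower, where all genes had 47.8%. At least 2-fold lower were 3 of the 5, 1 of the 3 and 0 of the 8. All genes of these levels had 56.8%, 20.0% and 9.75%. *Mapk14*, which encodes p38 alpha, had 318 and 122. Of 33 other genes of the phosphatase superfamily, 32 were above 0, and 25 of these were lower, with a median log2 ratio of -0.54. The 2-fold threshold was passed by 4 of the lower and 1 of the higher genes. Among the 6 whose mean reached 100, 3 were at least 2-fold lower, against 56.8% of all genes of this level, and the median was -0.96, against -1.08. *Ubash3a*, which encodes a suppressor of TCR signalling, had 125 and 72.

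Immediate early genes, the class to which *Dusp1* belongs, differed in both directions. Of 12 such genes, 7 were lower and 5 higher in the deficient library, and 4 of the former and 5 of the latter passed 2-fold. Of the 6 whose mean reached 100, 3 passed 2-fold as lower genes and 2 as higher ones, where all genes had 56.8% and 0.485%. Of the 5 with a mean from 50 to under 100, 0 and 3 did so, where all genes had 20.0% and 0.656%. The remaining gene passed 2-fold as a lower gene, as did 9.75% of all genes with a mean under 50. The mean takes in the deficient value, so a gene can reach a level through the library in which it is high. These shares are therefore not used as support. *Fos* had 39 in WT and 166 in the deficient library, and *Jun* had 67 and 161, both in the direction of *Dusp1*. The other higher calls were *Fosb* (32 and 69), *Junb* (31 and 69) and *Nr4a1* (39 and 82). The WT values of *Fos*, *Fosb*, *Junb* and *Nr4a1* lay within the olfactory receptor background. Of the genes for EGR transcription factors, *Egr1* had 263 and 81, *Egr2* had 63 and 62 and *Egr3* had 61 and 44, so they differed by unequal amounts. *Egr1* is in the study's target list, so its call is not independent of that selection. The other lower calls were *Zfp36* (1006 and 285), *Btg2* (531 and 255) and *Ier2* (32 and 9).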

How the data were processed

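RNA-seq was analysed for 2 libraries of DP thymocytes, 1 from WT and 1 from Cxxc1-deficient mice. The authors mapped reads to mm9 and used the uniquely mapped ones to obtain gene expression in the Partek Genomic Suite. The submitters' processing notes also list CASAVA 1.8.2 and Bowtie 1.0.1. The deposited values were treated as a score: whole numbers, 1 per gene and library, scaled by transcript length. The unit, the normalization and the gene annotation are not given in the sources used here.

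Ratios were taken of deposited values with a floor of 1, and shares were taken over the genes that either library had above 0. The value of 1 read was the step for which most values under 60 of genes with 1 annotated length under 1100 bases were whole reads after rounding. This held for 75.5% of 1793 genes in WT and 74.5% of 1773 genes in the deficient library, against 21.3% and 18.2% that rounding alone would give. Read numbers used the longest coding transcript of GENCODE vM1 (NCBIM37, the build of mm9) and are approximate, since the lengths the authors used are not given. A shorter transcript would give fewer reads and a wider interval. On the 19090 genes with a length they summed to 1373275 in WT and 709627 in the deficient library. Scripts were tested on simulated data.

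The 18 genes described in detail were those with a mean of at least 100, the 5 lowest and 5 highest ratios among genes above the olfactory receptor background, and Ptprc, Ptpn22 and Ptprcap. Other genes were named to account for the members of a class. Members, lists and this rule were chosen with earlier results of these data known. Symbols matched the annotation for 63 of 64 genes. Alternatives were 4 scalings, pseudocounts of 1 and 10, subtraction of the olfactory receptor median, a filter on low genes, thresholds of 1.5-fold and 3-fold, and other memberships. Computations used scipy 1.17.1, numpy 2.4.6 and pandas 2.3.3 under Python 3.11.15, with matplotlib 3.10.9 for plots.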

Additional observations from a re-analysis of the deposited data

How the results depend on the processing

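Of the 64 genes, 35 were lower as deposited, with 7 past 2-fold in that direction and 3 past it in the other, and a median log2 ratio of -0.15. The count of lower genes was 17 with the same sum without the 100 highest genes and 7 with the same median of genes whose mean reached 100. Genes at least 2-fold lower numbered 3 and 0 under these scalings, and 24 after subtraction of the olfactory receptor median, beside 1317, 706 and 7527 of the 20125 genes. Genes at least 2-fold higher numbered 6 at matched 75th percentiles, 11 with the same sum, 28 with the same median of genes whose mean reached 100, 14 after the subtraction, and 1 with a pseudocount of 10, beside 2417, 3468, 7492, 3038 and 465 of all genes in that order. The median log2 ratio reversed to 0.23, 0.41 and 0.84 when the 75th percentiles, the sums and the medians of genes whose mean reached 100 were matched, in that order. These changes follow from the factors of 1.31, 1.48 and 1.995 on the deficient library. Restricted to genes above the table's median mean value, the median was -0.46, and 1 gene was at least 2-fold higher. At 1.5-fold, 17 genes were lower and 6 higher, and at 3-fold these counts were 3 and 0. With the 99th percentile of olfactory receptor genes, chosen after seeing the data, 21 genes in WT and 16 in the deficient library exceeded the background. Without Ptprcap, and without both genes that encode no phosphatase (also chosen after seeing the data), 34 and 33 genes were lower. The number of reads limits genes near the background, where the ratio of Dusp13 (2.10) had an interval that includes 1 and that of Ptprm (2.16) one that does not. No paired analysis was possible because there is 1 library per genotype, and leaving out a replicate was not possible for that reason.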
